A study of Homo sapiens with 16 samples.

Results

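Transcripts of 9 genes that build, hold or restrain the proteolytic surface of invasive cells were measured in 2 triple-negative breast cancer lines: MMP1, MMP3, MMP9, MMP14, PLAU, PLAUR, TIMP1, TIMP3 and TGM2. They were taken by gene name from the 58735 genes counted in each line. The first 8 were taken for what they encode. TGM2 was chosen by its measured difference between the lines, so all of its values are given as a description with no test.

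Poly-A RNA was sequenced 48 h after lipofection of SUM159PT and MDA-MB-231 cells, established human lines without estrogen and progesterone receptors or HER2 amplification. Each line received a guide RNA directed at YES1 (sgYES1), the gene of a Src-family tyrosine kinase, or a non-targeting guide (sgNTS), with 4 replicates per line and guide and 16 libraries in all. All samples carry the genotype label WT and both arms were lipofected, and no source used here names the protein that works with the guides. The submitters call the replicates technical, so a p-value here measures the spread between these samples, which may be technical.

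Matrix metalloproteinases (MMPs) are zinc enzymes that cut collagens, laminins and other matrix proteins, and most leave the cell as inactive precursors that other proteases open. Tissue inhibitors of metalloproteinases (TIMPs) block the opened enzymes. Urokinase, held at the cell surface by its receptor, turns plasminogen into plasmin, which digests fibrin and opens several pro-MMPs. In breast cancer cell lines of mesenchymal type several of these genes are known as targets of AP-1, ETS and NF-kB transcription factors.

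Levels are CPM, reads of a gene per 1e6 reads counted, scaled by TMM factors. YES1 itself averaged 39.7 ± 0.754 CPM in SUM159PT sgYES1 cells and 94.2 ± 3.21 CPM in SUM159PT sgNTS cells (SD, n = 4 each). In MDA-MB-231 it averaged 42.7 ± 1.10 CPM with sgYES1 and 108 ± 3.07 CPM with sgNTS. The log2 fold change was -1.24 ± 0.05 (SE) in SUM159PT and -1.34 ± 0.04 (SE) in MDA-MB-231 (edgeR quasi-likelihood test, adjusted p = 1.65e-13 and 2.76e-11), with no overlap between the groups in either line. An exact two-sided permutation test of log2 CPM gave p = 0.0286 in SUM159PT and in MDA-MB-231, which is the smallest value possible with 4 against 4 libraries. Total counts ranged from 14.4 to 20.9 (in units of 1e6) in SUM159PT and from 17.2 to 25.1 in MDA-MB-231. Replicate 4 of MDA-MB-231 sgNTS stood apart from replicates 1 and 2 of its group, by a chi-square per degree of freedom of 26.2 and 17.7, against values of 2.22 to 8.56 for the other pairs of libraries within a group. Markers of a mesenchymal-like breast line reached at least 1 CPM for 8 of 8 genes in SUM159PT and 7 of 8 in MDA-MB-231, PGR was at 0 in every library, and ESR1 averaged 0.0478 to 0.263 CPM over the 4 groups. Summed levels of several marker lists lay apart between guides. In MDA-MB-231 the mesenchymal-like list summed to 4591 to 4713 CPM with sgYES1 and 5604 to 5964 CPM with sgNTS, 8 epithelial markers to 414 to 473 and 500.5 to 530.2 CPM, 8 luminal markers to 908 to 1009 and 1132 to 1180 CPM, and 7 endothelial markers, of which 2 reached 1 CPM and EMCN was at 0, to 7.78 to 10.5 and 4.64 to 5.95 CPM. In SUM159PT the mesenchymal-like list summed to 3333 to 3487 CPM with sgYES1 and 3664 to 3836 CPM with sgNTS, the luminal list to 1091 to 1261 and 1009 to 1082 CPM, and 8 fibroblast markers to 67.7 to 83.8 and 52.4 to 61.1 CPM. The epithelial and endothelial sums overlapped between guides in SUM159PT, as the fibroblast sum did in MDA-MB-231. Their part in the members' values was not tested.

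The 9 genes lie on 7 chromosomes. Coordinates are those of the count tables (hg38), and lengths are the summed exon lengths the tables give. MMP1 (ENSG00000196611, chr11:102789920-102798160, minus strand) and MMP3 (ENSG00000149968, chr11:102835801-102843803, minus strand) are neighbours in the MMP cluster of chromosome 11, 37.6 kb apart. MMP9 (ENSG00000100985, chr20:46008908-46016561, plus strand) and TGM2 (ENSG00000198959, chr20:38127387-38166578, minus strand) share chromosome 20. MMP14 (ENSG00000157227) is at chr14:22836557-22849027 on the plus strand. PLAU (ENSG00000122861) is at chr10:73909177-73917497 on the plus strand, and PLAUR (ENSG00000011422) at chr19:43646095-43670547 on the minus strand. TIMP1 (ENSG00000102265) is at chrX:47582313-47586789 and TIMP3 (ENSG00000100234) at chr22:32801701-32863043, both on the plus strand.

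TGM2 was the member that a well-expressed gene overlaps, RPRD1B on the opposite strand, and the extent of overlap was not measured for any member. RPRD1B averaged 68.6 and 67.2 CPM in SUM159PT sgYES1 and sgNTS cells and 88.1 and 86.2 CPM in MDA-MB-231 sgYES1 and sgNTS cells. No source used here says whether the counting used strand. Genes that overlap the other members had at most 66 counts in any library. The largest was C10orf55, which overlaps PLAU, at 2.00 CPM in MDA-MB-231 sgYES1 and 1.74 CPM in MDA-MB-231 sgNTS cells. WTAPP1, which overlaps MMP1 and MMP3 on the opposite strand, had at most 2 counts in a library.

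Promoter windows from RefSeq (GRCh38.p14), running from 250 bases before to 50 bases after a transcription start, were found for 5 of the 9 genes. They are shown for 4 of these genes, PLAUR because its transcript rose in both lines and MMP14, PLAU and TIMP3 because their levels lay furthest apart between the lines. Capitals mark the AP-1 motif TGANTCA and the SP1 motif GGGCGG, or the reverse complement CCGCCC, both searched on both strands and not overlapping here.
PLAUR: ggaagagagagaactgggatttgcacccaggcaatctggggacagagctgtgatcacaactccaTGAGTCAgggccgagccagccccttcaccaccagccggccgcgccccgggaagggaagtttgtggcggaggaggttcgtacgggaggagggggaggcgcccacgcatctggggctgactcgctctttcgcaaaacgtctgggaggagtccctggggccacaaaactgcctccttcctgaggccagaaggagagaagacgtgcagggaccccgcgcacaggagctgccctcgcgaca
TIMP3: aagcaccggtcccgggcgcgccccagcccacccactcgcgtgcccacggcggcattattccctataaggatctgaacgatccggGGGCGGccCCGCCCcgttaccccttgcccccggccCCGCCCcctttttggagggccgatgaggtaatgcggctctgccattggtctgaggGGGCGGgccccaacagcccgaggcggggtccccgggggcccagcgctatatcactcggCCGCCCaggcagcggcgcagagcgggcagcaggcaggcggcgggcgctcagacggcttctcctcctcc
MMP14: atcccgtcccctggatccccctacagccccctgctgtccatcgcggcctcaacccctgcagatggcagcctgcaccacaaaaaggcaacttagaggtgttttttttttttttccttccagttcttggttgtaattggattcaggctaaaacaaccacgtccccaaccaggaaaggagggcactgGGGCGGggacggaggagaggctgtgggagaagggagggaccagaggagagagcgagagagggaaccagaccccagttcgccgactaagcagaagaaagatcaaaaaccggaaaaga
PLAU: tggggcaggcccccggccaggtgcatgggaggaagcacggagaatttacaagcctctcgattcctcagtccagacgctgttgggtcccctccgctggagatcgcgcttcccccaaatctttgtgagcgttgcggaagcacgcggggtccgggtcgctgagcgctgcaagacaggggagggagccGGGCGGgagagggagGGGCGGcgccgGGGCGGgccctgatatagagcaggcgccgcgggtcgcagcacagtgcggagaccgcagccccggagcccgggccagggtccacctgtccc
The PLAUR window is chr19:43670120-43670419 on the minus strand, and its AP-1 match begins 186 bases before the start. The TIMP3 window is chr22:32801455-32801754, that of MMP14 is chr14:22836335-22836634, and that of PLAU, the downstream of its 2 RefSeq starts, is chr10:73910882-73911181, all on the plus strand. An AP-1 match is present in 7.71% of 35116 RefSeq promoters, and of the 6 windows of the 5 genes only that of PLAUR held 1. SP1 matches, present in 45.0% of promoters, numbered 5 for TIMP3, 3 for PLAU, 1 for MMP14 and 0 for PLAUR. NF-kB, searched by its consensus and present in 11.3% of promoters, had no match in the 6 windows. The TIMP3 and PLAU windows held 31 and 28 CG dinucleotides, against a median of 14 over all promoters, and those of PLAUR and MMP14 held 18 and 10.

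**Figure D1:**
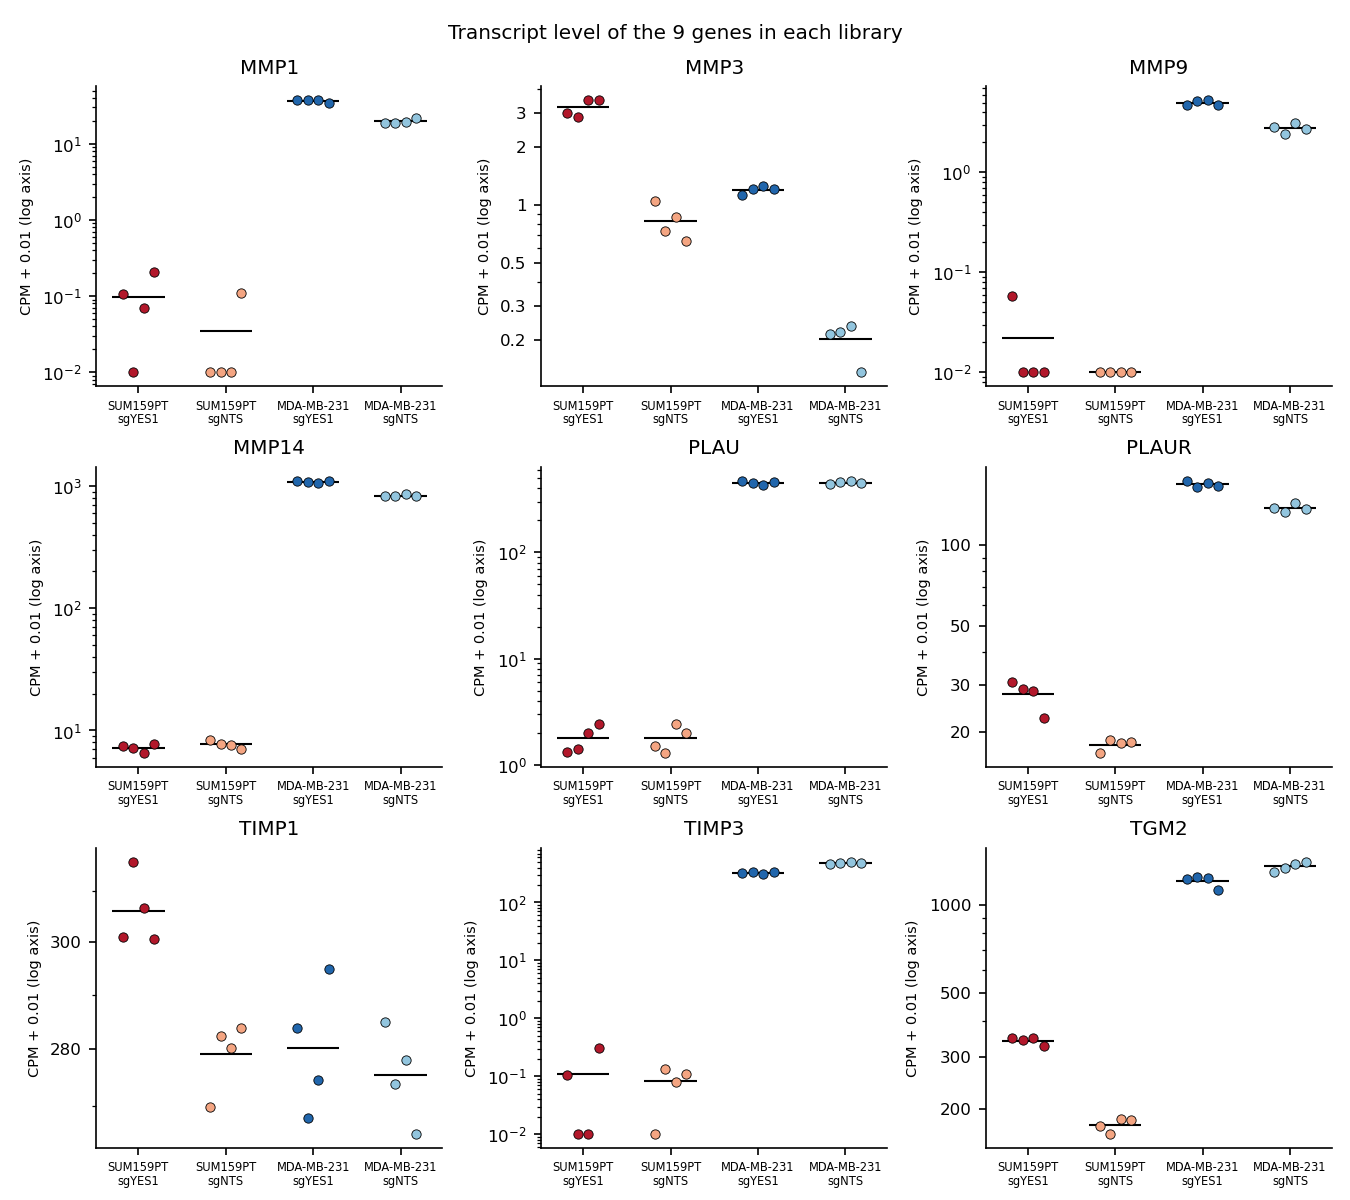
Transcript level of each of the 9 genes (CPM + 0.01, log axis, scale differs between panels) in the 16 libraries, with points for libraries and bars for group means. MMP1, MMP9 and TIMP3 sit at or near the bottom in SUM159PT, TIMP1 lies between 265 and 316 CPM in every library, and MMP3 is higher with sgYES1 than with sgNTS in both lines.

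Of the members that could be fitted, MMP3 had the largest guide effect in both lines. It encodes stromelysin-1, which cuts proteoglycans, laminin and fibronectin and activates other pro-MMPs. In SUM159PT it stood at 3.01, 2.85, 3.52 and 3.50 CPM in the sgYES1 libraries, against 1.04, 0.729, 0.857 and 0.644 CPM in the sgNTS libraries. In MDA-MB-231 it stood at 1.12, 1.2, 1.25 and 1.21 CPM with sgYES1, against 0.205, 0.210, 0.227 and 0.127 CPM with sgNTS. The groups did not overlap in either line, and the sgYES1 cells of MDA-MB-231 lay above the sgNTS cells of SUM159PT. MMP3 rose 3.99-fold in SUM159PT (log2 2.00 ± 0.22 SE, edgeR adjusted p = 5.11e-07). In MDA-MB-231 its fitted level was 6.15-fold higher with sgYES1 (log2 2.62 ± 0.29 SE). The difference of the effects, SUM159PT minus MDA-MB-231, was -0.63 ± 0.37 (SE, log2, 95% interval -1.39 to 0.13), which did not pass the test (edgeR adjusted p = 0.273). The counts behind these values were low, at 43 to 71 and 12 to 16 reads a library in SUM159PT sgYES1 and sgNTS cells and 20 to 31 and 3 to 5 in MDA-MB-231 sgYES1 and sgNTS cells. In MDA-MB-231 MMP3 passed the filter on low counts only through the sgYES1 libraries, the group where it was higher. Its fitted change in that line is therefore a description with no test. No source used here says how reads with several matches were counted, and MMP10, a close paralog of MMP3, averaged at most 0.270 CPM in any group.

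Fibroblast markers moved in the same direction as MMP3 in SUM159PT. The summed level of 8 such genes was 67.7 to 83.8 CPM in SUM159PT sgYES1 libraries and 52.4 to 61.1 CPM in SUM159PT sgNTS libraries, with 5 of 8 at 1 CPM or more in each group and LUM at 0 in the sgNTS cells. In MDA-MB-231 the sum was 11.0 to 13.3 CPM with sgYES1 and 11.6 to 12.8 CPM with sgNTS. The part of these markers in the MMP3 result was not tested. In bulk RNA, fewer cells that carry a transcript and less transcript per cell cannot be told apart.

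MMP1, the interstitial collagenase that opens fibrillar collagen, was a transcript of MDA-MB-231 and was nearly missing from SUM159PT. Its reads numbered 2, 0, 1 and 4 in the SUM159PT sgYES1 libraries and 0, 0, 0 and 2 in the SUM159PT sgNTS libraries, too few for a test of the guide. The MDA-MB-231 libraries held it at 38.0, 37.5, 37.2 and 34.5 CPM with sgYES1, against 18.9, 18.9, 19.0 and 21.9 CPM with sgNTS. Every sgYES1 library lay above every sgNTS library, and replicate 4 of sgNTS, the library that stood apart, was the highest of its group. MMP1 rose 1.86-fold in MDA-MB-231 (log2 0.89 ± 0.06 SE, edgeR adjusted p = 8.22e-08).

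MMP9, gelatinase B, which cuts denatured collagen and basement membrane collagen, followed the same line pattern at lower levels. It had 1, 0, 0 and 0 reads in SUM159PT sgYES1 libraries and 0 reads in each of the 4 SUM159PT sgNTS libraries. MDA-MB-231 libraries had 4.77, 5.14, 5.33 and 4.72 CPM with sgYES1, against 2.83, 2.42, 3.11 and 2.70 CPM with sgNTS. These groups did not overlap, and MMP9 rose 1.80-fold (log2 0.85 ± 0.12 SE, edgeR adjusted p = 6.53e-05). Leukocytes are another known source of MMP9. The summed level of 10 leukocyte markers was 3.04 to 3.64 CPM in MDA-MB-231 sgYES1 and 1.15 to 2.07 CPM in MDA-MB-231 sgNTS libraries. In SUM159PT it was 0.986 to 1.85 CPM with sgYES1 and 0.214 to 0.669 CPM with sgNTS. CD3E, MS4A1 and FCGR3A were at 0 in all 16 libraries, PTPRC averaged 0.0621 CPM in MDA-MB-231 sgYES1 and 0.0314 CPM in MDA-MB-231 sgNTS cells, and CD14 averaged 1.94 and 0.842 CPM and ITGAM 1.13 and 0.290 CPM in those groups. In SUM159PT sgYES1 and sgNTS cells CD14 averaged 0.744 and 0.0943 CPM and ITGAM 0.437 and 0.0810 CPM. Other markers of the list went the other way. LYZ averaged 0.0924 CPM in MDA-MB-231 sgYES1 and 0.464 CPM in MDA-MB-231 sgNTS cells. In SUM159PT sgYES1 and sgNTS cells PTPRC averaged 0.224 and 0.238 CPM and CD68 0.0272 and 0.0372 CPM. The part of these markers in the MMP9 result was not tested.

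MMP14 is the membrane-anchored collagenase MT1-MMP, which also activates pro-MMP2. In MDA-MB-231 it stood at 1106, 1083, 1049 and 1092 CPM with sgYES1, against 823, 823, 861 and 822 CPM with sgNTS, without overlap. In SUM159PT it stood at 7.52, 7.16, 6.50 and 7.79 CPM with sgYES1, against 8.41, 7.72, 7.57 and 7.04 CPM with sgNTS, and these groups overlapped. MMP14 rose 1.30-fold in MDA-MB-231 (log2 0.38 ± 0.03 SE, edgeR adjusted p = 5.47e-07). In SUM159PT its log2 fold change was -0.07 ± 0.11 (SE, 95% interval -0.30 to 0.16, edgeR adjusted p = 0.657). The difference of the effects, SUM159PT minus MDA-MB-231, was -0.45 ± 0.08 (SE, log2, edgeR adjusted p = 0.000240), so the guide effect on MMP14 differed between the lines.

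PLAU and PLAUR parted from each other. PLAU encodes urokinase, and in MDA-MB-231 it stood at 473, 448, 431 and 457 CPM with sgYES1, against 441, 459.9, 465 and 449.5 CPM with sgNTS. In SUM159PT it stood at 1.31, 1.39, 1.97 and 2.42 CPM with sgYES1, against 1.5, 1.28, 2.43 and 1.98 CPM with sgNTS. The groups overlapped in both lines. The log2 fold change of PLAU did not pass the test in SUM159PT (95% interval -0.51 to 0.51, edgeR adjusted p = 0.998) or in MDA-MB-231 (95% interval -0.08 to 0.07, edgeR adjusted p = 0.874). The interval is narrow in MDA-MB-231, where PLAU had 7844 to 11719 reads a library, and wide in SUM159PT, where it had 21 to 49.

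PLAUR, the urokinase receptor, rose in both lines. It stood at 30.7, 28.9, 28.4 and 22.6 CPM in SUM159PT sgYES1 libraries, against 16.6, 18.6, 18.2 and 18.3 CPM in SUM159PT sgNTS libraries. In MDA-MB-231 it stood at 175, 165, 172 and 167 CPM with sgYES1, against 138, 133, 144 and 136 CPM with sgNTS. No group overlapped its own control, and replicate 4 of SUM159PT sgYES1 was the lowest of its group. The rise was 1.55-fold in SUM159PT (log2 0.63 ± 0.09 SE, edgeR adjusted p = 8.15e-06) and 1.23-fold in MDA-MB-231 (log2 0.30 ± 0.04 SE, edgeR adjusted p = 1.64e-05). The effect was larger in SUM159PT, by 0.32 ± 0.09 (SE, log2, edgeR adjusted p = 0.0109).

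TIMP1, the secreted inhibitor of most MMPs, lay between 265 and 316 CPM in all 16 libraries. It stood at 301, 316, 307 and 301 CPM in SUM159PT sgYES1 libraries, against 269.8, 282, 280.2 and 284 CPM in SUM159PT sgNTS libraries. MDA-MB-231 libraries had 284, 268, 274 and 295 CPM with sgYES1, against 285, 274, 278 and 265 CPM with sgNTS. The SUM159PT groups did not overlap and the MDA-MB-231 groups did. TIMP1 rose 1.10-fold in SUM159PT (log2 0.14 ± 0.04 SE, edgeR adjusted p = 0.00480). In MDA-MB-231 its log2 fold change was 0.02 ± 0.04 (SE, 95% interval -0.06 to 0.10, edgeR adjusted p = 0.672). The difference between these effects was 0.11 ± 0.05 (SE, log2, edgeR adjusted p = 0.147) and passed the test under DESeq2 (0.13, adjusted p = 0.0494), without replicate 4 of MDA-MB-231 sgYES1 (0.17, edgeR adjusted p = 0.0173), without replicate 4 of MDA-MB-231 sgNTS (0.16, edgeR adjusted p = 0.0371) and without replicate 2 of SUM159PT sgNTS (0.15, edgeR adjusted p = 0.0485).

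TIMP3, the inhibitor that stays bound to the matrix and also blocks ADAM proteases, was the tested member called lower with sgYES1. It stood at 317, 332, 310.4 and 334 CPM in MDA-MB-231 sgYES1 libraries, against 466, 475, 507 and 486 CPM in MDA-MB-231 sgNTS libraries. The groups did not overlap, and TIMP3 fell by 0.58 on the log2 scale (SE 0.04, edgeR adjusted p = 3.65e-08), to 0.668 of the sgNTS level. In SUM159PT it had 2, 0, 0 and 6 reads with sgYES1 and 0, 2, 1 and 2 reads with sgNTS, too few for a test.

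TGM2, tissue transglutaminase, crosslinks matrix proteins and binds fibronectin together with integrins. It stood at 348, 344, 349.6 and 327 CPM in SUM159PT sgYES1 libraries, against 174, 163, 185 and 183 CPM in SUM159PT sgNTS libraries. The MDA-MB-231 libraries had 1226, 1242, 1239 and 1126 CPM with sgYES1, against 1298, 1333, 1381 and 1407 CPM with sgNTS. The guide groups did not overlap in either line, and they lay in opposite order, sgYES1 above sgNTS in SUM159PT and sgYES1 below sgNTS in MDA-MB-231. As a description, the fitted log2 fold change was 0.96 ± 0.04 (SE) in SUM159PT, or 1.95-fold, and -0.17 ± 0.04 (SE) in MDA-MB-231, and their difference was 1.12 ± 0.06 (SE).

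In all, 3 of the 8 members other than TGM2 rose and 0 fell in SUM159PT, where 5 of the 8 had enough reads for the test. Over all genes tested in SUM159PT, 19.6% were called higher and 19.7% lower. In MDA-MB-231, of the 7 that passed the filter on low counts in both guide groups, 4 rose and 1 fell, where 20.8% of genes tested were called higher and 22.1% lower. Scaling by library totals alone moved the share of calls that were higher in MDA-MB-231 to 59.8%, against 48.5% with TMM factors. Among those 5 and 7 members, the libraries did not overlap between guides for 3 in SUM159PT and 5 in MDA-MB-231, where they did not overlap for 35.0% and 39.2% of genes tested. MMP3 is left out of the MDA-MB-231 counts because it passed the filter only through sgYES1, and TGM2 is left out of all of them. In the difference between the lines, PLAUR was called higher in SUM159PT and MMP14 lower, where 12.7% of genes tested were called higher and 11.9% lower. Without replicate 4 of MDA-MB-231 sgNTS, the library that stood apart, the same 5 members were called in MDA-MB-231. Their log2 fold changes were 0.95 for MMP1, 0.83 for MMP9, 0.37 for MMP14, 0.29 for PLAUR and -0.58 for TIMP3 (edgeR adjusted p from 1.09e-09 to 0.000118). MMP3, left out of this count too, had a log2 fold change of 2.45 there. Since MMP1, MMP9 and TIMP3 could not be tested in SUM159PT, the counts of the 2 lines cover different genes.

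**Figure D2:**
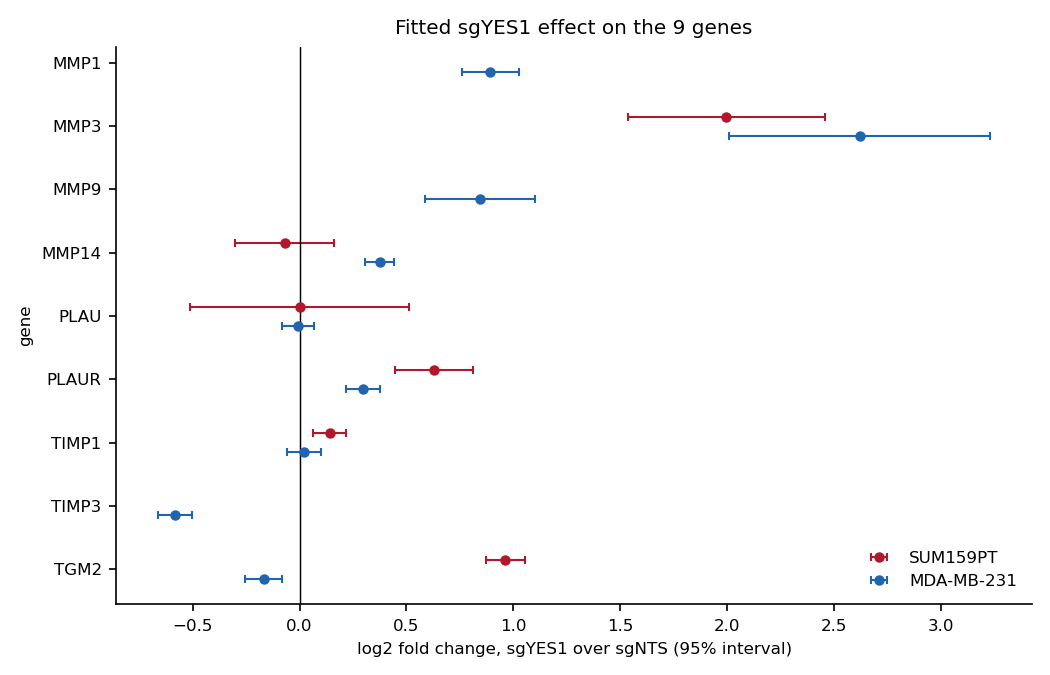
Fitted log2 fold change of sgYES1 over sgNTS for the 9 genes in SUM159PT (red) and MDA-MB-231 (blue), with 95% intervals; a missing point is a gene with too few reads. MMP3 lies furthest to the right in both lines at 2.00 and 2.62, TIMP3 furthest to the left at -0.58, and TGM2 is at 0.96 and -0.17. The TGM2 points and the MMP3 point in MDA-MB-231 are descriptions, and their intervals are not to be read as tests.

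Levels of the members were also compared between the lines, a comparison in which 40.4% of all genes tested were called higher in SUM159PT and 42.3% lower. The levels compared here are those of the sgNTS libraries, which also serve as controls above, so the line difference and the guide effects are not independent. Only the line itself is named by the labels, and anything else that differed between the 2 sets of samples cannot be told apart from it. PLAU averaged 1.80 ± 0.514 CPM in SUM159PT and 454 ± 10.9 CPM in MDA-MB-231 (SD, n = 4 each), which was 256-fold lower in SUM159PT (log2 -8.00 ± 0.08 SE, edgeR adjusted p = 2.94e-18). MMP14 averaged 7.68 ± 0.566 CPM in SUM159PT and 832 ± 19.0 CPM in MDA-MB-231, 110-fold lower in SUM159PT (log2 -6.78 ± 0.05 SE, edgeR adjusted p = 4.92e-19). PLAUR averaged 17.9 ± 0.885 CPM in SUM159PT and 138 ± 4.49 CPM in MDA-MB-231, 7.77-fold lower in SUM159PT (log2 -2.96 ± 0.05 SE, edgeR adjusted p = 2.32e-16). All 3 lay lower in SUM159PT by more than the spread between libraries. MMP3 ran the other way, with 0.818 ± 0.173 CPM in SUM159PT and 0.192 ± 0.0446 CPM in MDA-MB-231, 4.11-fold higher in SUM159PT (log2 2.04 ± 0.34 SE). Unlike PLAU, MMP14 and PLAUR, it passed the filter on low counts only through SUM159PT, and it had 3 to 5 reads a library in MDA-MB-231. Its entry into that fit depended on the line where it was higher, so these MMP3 values are a description with no test. TIMP1 averaged 279 ± 6.33 CPM in SUM159PT and 275 ± 8.26 CPM in MDA-MB-231, and its log2 difference did not pass the test (95% interval -0.07 to 0.08, edgeR adjusted p = 0.938). TGM2, as a description, averaged 176 ± 9.95 CPM in SUM159PT and 1355 ± 48.6 CPM in MDA-MB-231, 7.76-fold lower in SUM159PT.

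For the genes near 0 in SUM159PT, the fold was taken from summed reads, with intervals that cover counting error only. TIMP3 had 5 reads over the 4 SUM159PT sgNTS libraries and was 6363-fold lower than in MDA-MB-231 sgNTS cells (95% interval 2726 to 19600). MMP1 had 2 reads and was 652-fold lower (95% interval 181 to 5386). Both reads were in replicate 4, and without that library MMP1 had 0 reads and was at least 302-fold lower if 3 reads are allowed over the other 3. MMP9 had 0 reads, and was at least 60.8-fold lower in SUM159PT if 3 reads are allowed over the group. With sgYES1, SUM159PT had 8 reads of TIMP3, 7 of MMP1 and 1 of MMP9, which put them 2946-fold (95% interval 1495 to 6824), 380-fold (95% interval 185 to 945) and 362-fold (95% interval 65.0 to 14300) below MDA-MB-231 sgYES1 cells. Replicate 4 held 6 of these TIMP3 reads and 4 of the MMP1 reads, and without it the folds were 8499 (95% interval 2353 to 70180) for TIMP3 and 640 (95% interval 219 to 3102) for MMP1. Without replicate 1, which held the MMP9 read, MMP9 was at least 86.5-fold lower with 3 reads allowed over the group. MMP1, MMP9 and TIMP3 passed the filter on low counts only through MDA-MB-231 and MMP3 only through SUM159PT, the line where each was higher, so no count of calls over the members is given for the lines.

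The order of levels per length, in CPM per kb of exon, differed between the lines. In MDA-MB-231 sgNTS cells MMP14 (186 ± 4.26), TIMP1 (179 ± 5.36), TGM2 (169 ± 6.05), PLAU (154 ± 3.68) and TIMP3 (105 ± 3.84) led, followed by PLAUR (30.9 ± 1.01), MMP1 (9.99 ± 0.756), MMP9 (1.18 ± 0.124) and MMP3 (0.0938 ± 0.0218, SD, n = 4 each). In SUM159PT sgNTS cells TIMP1 (181 ± 4.11) was followed by TGM2 (22.0 ± 1.24), PLAUR (4.02 ± 0.199), MMP14 (1.72 ± 0.127), PLAU (0.609 ± 0.174) and MMP3 (0.400 ± 0.0847 CPM per kb). MMP2, gelatinase A, whose precursor MMP14 activates, lay the other way, at 29.7 ± 1.47 CPM per kb in SUM159PT sgNTS cells and 0.0315 ± 0.0209 CPM per kb in MDA-MB-231 sgNTS cells, a log2 difference of 9.72 ± 0.12 (SE). It had 1 to 7 reads a library in MDA-MB-231 sgNTS cells and passed the filter on low counts only through SUM159PT. As MMP2 was also named after its values were seen, these values are a description with no test.

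**Figure D3:**
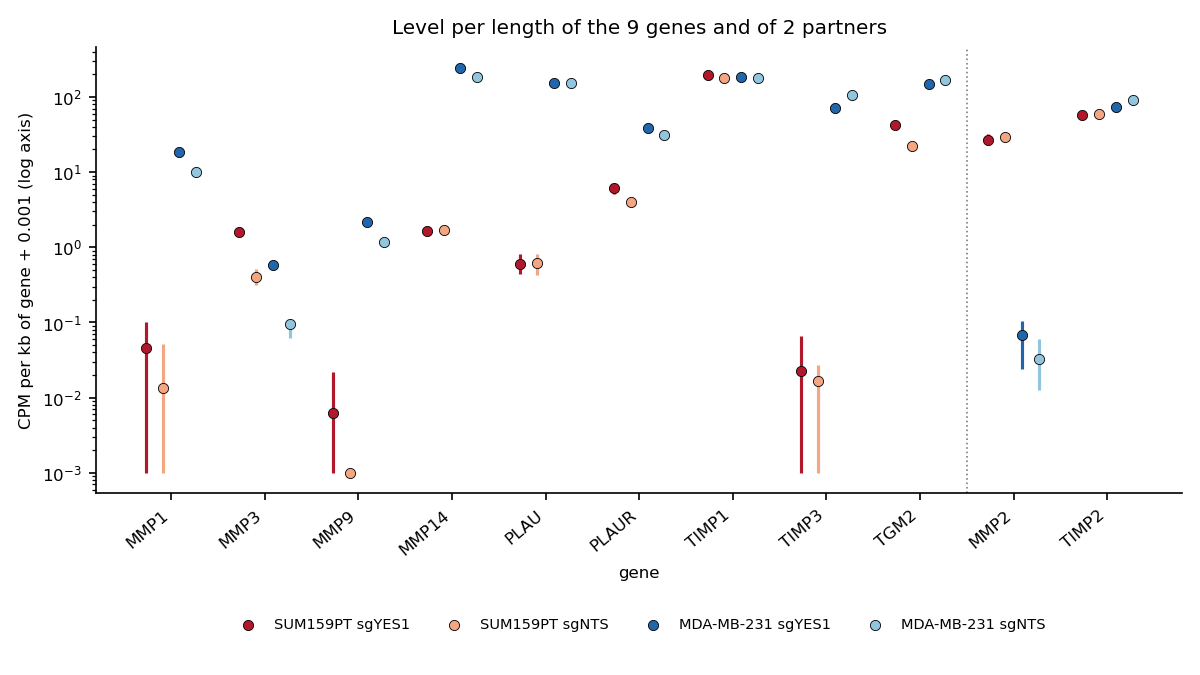
Mean level per length (CPM per kb of exon + 0.001, log axis) of the 9 genes and of MMP2 and TIMP2 in the 4 groups, with vertical lines from the lowest to the highest library. MMP14, PLAU and TIMP3 are high in MDA-MB-231 and low in SUM159PT, and MMP2 is high in SUM159PT and near 0 in MDA-MB-231. TIMP1 stays within a narrow range over the 4 groups, and TIMP2 runs from 58.3 in SUM159PT sgYES1 to 90.1 CPM per kb in MDA-MB-231 sgNTS cells.

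Ratios of enzyme to inhibitor or ligand to receptor transcripts, taken per length within a library, are given as descriptions. MMP14 over TIMP2, the inhibitor that also bridges MMP14 to pro-MMP2, was 3.34 ± 0.0996 in MDA-MB-231 sgYES1 and 2.07 ± 0.0779 in MDA-MB-231 sgNTS libraries, without overlap. In SUM159PT it was 0.0278 ± 0.00106 with sgYES1 and 0.0291 ± 0.00285 with sgNTS, and the groups overlapped. PLAU over PLAUR was 4.03 ± 0.157 in MDA-MB-231 sgYES1 and 4.98 ± 0.169 in MDA-MB-231 sgNTS libraries, without overlap, and 0.101 ± 0.0439 and 0.151 ± 0.0415 in SUM159PT sgYES1 and sgNTS libraries, with overlap. Per length the urokinase transcript exceeded that of its receptor in MDA-MB-231 and lay below it in SUM159PT in every library.

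MMP3 over TIMP1 was 0.00793 ± 0.000939 in SUM159PT sgYES1 and 0.00222 ± 0.000523 in SUM159PT sgNTS libraries. In MDA-MB-231 it was 0.00321 ± 0.000218 with sgYES1 and 0.000523 ± 0.000113 with sgNTS. MMP1 over TIMP1 was 0.103 ± 0.00779 in MDA-MB-231 sgYES1 and 0.0560 ± 0.00583 in MDA-MB-231 sgNTS libraries. None of these 3 pairs of groups overlapped, and the highest ratio of MMP1 to TIMP1 in any library was 0.109.

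**Figure D4:**
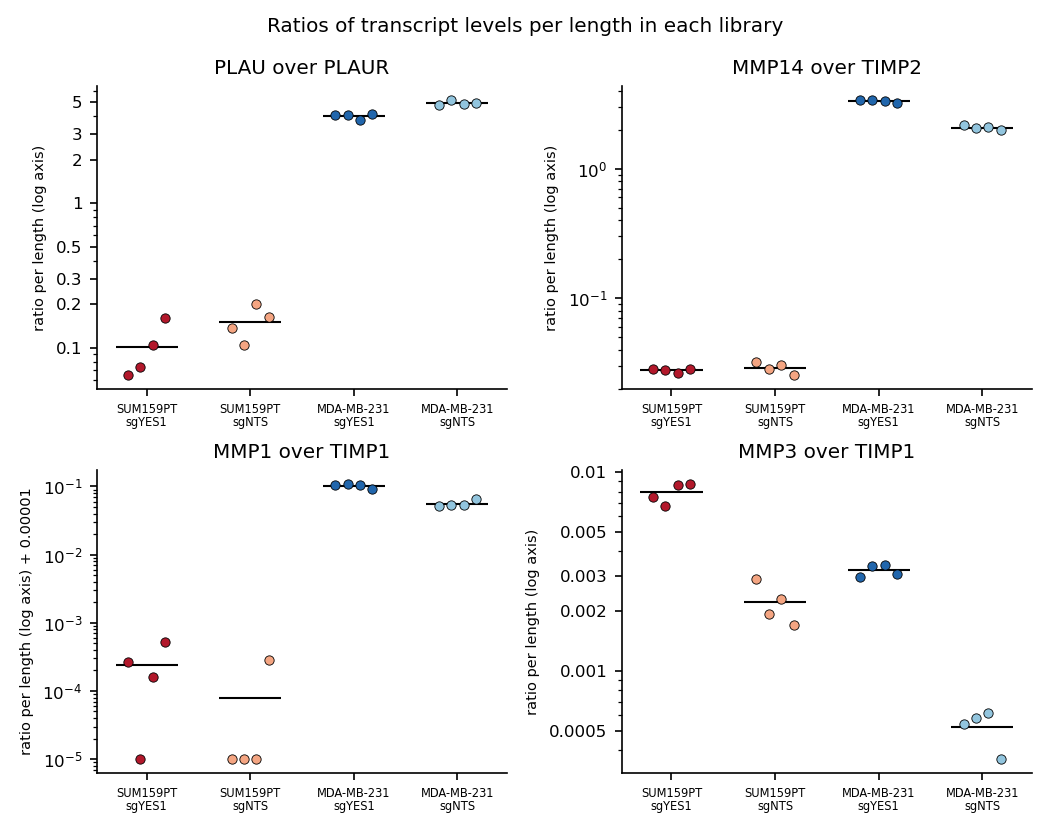
Ratios of transcript levels per length (log axis, scale differs between panels, 0.00001 added for MMP1 over TIMP1) in each library, with bars for group means. In MDA-MB-231, PLAU over PLAUR is lower with sgYES1 (4.03) than with sgNTS (4.98) and MMP14 over TIMP2 is higher (3.34 and 2.07), while the SUM159PT groups overlap in both ratios.

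Other genes of the same systems were counted in lists that were chosen with earlier results of these data known. Over all genes tested, 19.6% were called higher and 19.7% lower in SUM159PT, and 20.8% higher and 22.1% lower in MDA-MB-231. These shares stand beside every list count below, and a count near them is not a result about that list. Of 16 other MMP genes, 8 were tested in SUM159PT and 6 in MDA-MB-231. In SUM159PT 3 rose and 0 fell, with a median log2 fold change of 0.46 over those tested, against -0.01 over all genes. In MDA-MB-231 2 rose and 0 fell, with a median of 0.15 against 0.01. With every gene that had a count tested, 5 rose in MDA-MB-231, and 1 fell in SUM159PT, as it did with a replicate block and without replicate 4 of SUM159PT sgYES1. MMP15, a membrane-anchored relative of MMP14, averaged 97.6 ± 6.08 CPM in SUM159PT sgYES1 and 64.1 ± 3.47 CPM in SUM159PT sgNTS cells (log2 0.61 ± 0.05 SE, edgeR adjusted p = 2.57e-08). It averaged 16.7 ± 1.03 CPM in MDA-MB-231 sgYES1 and 11.6 ± 0.673 CPM in MDA-MB-231 sgNTS cells (log2 0.52 ± 0.07 SE, edgeR adjusted p = 6.53e-05). MMP17, anchored by a lipid, rose in SUM159PT (log2 0.45 ± 0.14 SE, edgeR adjusted p = 0.0125) and in MDA-MB-231 (log2 0.54 ± 0.16 SE, edgeR adjusted p = 0.0121). Without replicate 2 of SUM159PT sgNTS the SUM159PT call was lost (log2 0.35, edgeR adjusted p = 0.0528). MMP19 rose in SUM159PT, at 5.38 ± 0.575 CPM with sgYES1 and 3.13 ± 0.230 CPM with sgNTS (log2 0.78 ± 0.15 SE, edgeR adjusted p = 0.000213).

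Of 13 other genes in a list of inhibitors and activators of metalloproteinases and related genes, 10 were tested in each line. Of these, 3 rose and 2 fell in SUM159PT and 1 rose and 5 fell in MDA-MB-231. The counts of genes that fell include CAV1 in both lines and HPSE in MDA-MB-231, which are related genes and not inhibitors or activators. The medians were -0.03 and -0.13. In MDA-MB-231 2 rose without replicate 4 of sgYES1 or without any 1 of the 4 sgNTS replicates, with every gene that had a count, and with all 16 libraries in 1 fit. TFPI2, a secreted inhibitor of plasmin and other serine proteases, rose in both lines, at 54.6 ± 4.82 CPM in SUM159PT sgYES1 and 32.0 ± 1.88 CPM in SUM159PT sgNTS cells, and 129 ± 4.69 CPM in MDA-MB-231 sgYES1 and 81.3 ± 0.508 CPM in MDA-MB-231 sgNTS cells (log2 0.78 ± 0.07 and 0.66 ± 0.04 SE, edgeR adjusted p = 1.66e-08 and 1.13e-08). CAV1, the scaffold protein of caveolae, fell in both lines (log2 -0.57 ± 0.05 SE in SUM159PT and -0.92 ± 0.04 SE in MDA-MB-231, edgeR adjusted p = 5.52e-09 and 5.04e-10). TIMP2 fell in MDA-MB-231, at 409 ± 15.2 CPM with sgYES1 and 507 ± 20.2 CPM with sgNTS (log2 -0.31 ± 0.04 SE, edgeR adjusted p = 1.47e-05). HPSE, which cuts heparan sulfate, fell there too (log2 -0.55 ± 0.07 SE, edgeR adjusted p = 4.42e-05).

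Of 23 other genes of the plasminogen system, 15 were tested in SUM159PT, of which 3 rose and 7 fell, and 18 in MDA-MB-231, of which 5 rose and 3 fell. The medians were -0.08 and 0.14. With library totals in place of TMM factors, 5 rose and 4 fell in SUM159PT and 8 rose in MDA-MB-231, and without replicate 3 of SUM159PT sgNTS 4 fell in that line. SERPINE2, protease nexin-1, rose in both lines, at 7.68 ± 0.951 CPM in SUM159PT sgYES1 and 2.51 ± 0.456 CPM in SUM159PT sgNTS cells and 35.3 ± 0.906 CPM in MDA-MB-231 sgYES1 and 24.8 ± 1.57 CPM in MDA-MB-231 sgNTS cells (log2 1.62 ± 0.15 and 0.51 ± 0.05 SE, edgeR adjusted p = 4.94e-08 and 4.87e-06). S100A10, which with annexin A2 holds plasminogen at the cell surface, fell in both lines (log2 -0.34 ± 0.04 SE in SUM159PT and -0.36 ± 0.04 SE in MDA-MB-231, edgeR adjusted p = 1.76e-06 and 9.80e-06). ANXA2, its partner, fell as well (log2 -0.14 ± 0.03 SE in SUM159PT and -0.34 ± 0.04 SE in MDA-MB-231, edgeR adjusted p = 0.00196 and 3.82e-06). Plasminogen itself (PLG) had 0 reads in every library.

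Beside TGM2, the list of transglutaminases and matrix crosslinkers held 19 genes, of which 10 were tested in SUM159PT, where 3 rose and 2 fell, and 13 in MDA-MB-231, where 2 rose and 5 fell. The medians were -0.05 and 0.00. In SUM159PT 5 rose with every gene that had a count or with all 16 libraries in 1 fit, and 4 fell without replicate 1 of sgYES1. In MDA-MB-231 1 rose without replicate 2 of sgYES1 or replicate 3 of sgNTS. LOXL2, a lysyl oxidase that crosslinks collagen, fell in both lines, at 103 ± 6.34 CPM in SUM159PT sgYES1 and 159 ± 2.90 CPM in SUM159PT sgNTS cells and 285 ± 5.98 CPM in MDA-MB-231 sgYES1 and 364 ± 12.5 CPM in MDA-MB-231 sgNTS cells (log2 -0.61 ± 0.05 and -0.36 ± 0.03 SE, edgeR adjusted p = 2.24e-09 and 1.71e-06). LOX rose in SUM159PT, at 21.2 ± 1.59 CPM with sgYES1 and 15.3 ± 1.09 CPM with sgNTS (log2 0.47 ± 0.08 SE, edgeR adjusted p = 0.000115). P4HA2, a collagen prolyl hydroxylase subunit, rose in both lines (log2 0.27 ± 0.05 SE in SUM159PT and 0.25 ± 0.04 SE in MDA-MB-231, edgeR adjusted p = 0.000137 and 7.70e-05).

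Among 16 adamalysin proteases, 12 were tested in SUM159PT, of which 1 rose and 5 fell, and 14 in MDA-MB-231, of which 5 rose and 3 fell, with medians of -0.16 and 0.08. In SUM159PT 3 fell with library totals and without replicate 1 or 4 of sgNTS, and 2 rose with every gene that had a count and without replicate 4 of sgYES1. ADAM9 and ADAM15, membrane-bound sheddases, fell in both lines (ADAM9 log2 -0.30 ± 0.05 SE in SUM159PT and -0.25 ± 0.04 SE in MDA-MB-231, edgeR adjusted p = 2.69e-05 and 6.67e-05). ADAMTS9, a secreted proteoglycan-cutting enzyme, rose in MDA-MB-231, at 33.7 ± 4.35 CPM with sgYES1 and 15.9 ± 1.15 CPM with sgNTS (log2 1.07 ± 0.09 SE, edgeR adjusted p = 3.75e-07). Of 18 cathepsins and cystatins, 5 rose and 3 fell of 15 tested in SUM159PT, and 4 rose and 8 fell of 17 tested in MDA-MB-231, with medians of -0.02 and -0.02. CTSL, a lysosomal cysteine protease, rose in both lines (log2 0.33 ± 0.04 SE in SUM159PT and 0.43 ± 0.04 SE in MDA-MB-231, edgeR adjusted p = 6.14e-06 and 7.46e-07). Of 28 matrix substrates and receptors, 5 rose and 8 fell of 25 tested in SUM159PT, and 8 rose and 8 fell of 26 tested in MDA-MB-231, with medians of -0.05 and -0.07.

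Genes that take part in regulating transcription of these proteases, not all of them activators, were counted in 2 further lists. Of 16 cytokines and growth factors, 2 rose and 1 fell of 10 tested in SUM159PT, and 7 rose and 2 fell of 12 tested in MDA-MB-231, with medians of -0.03 and 0.34. In the difference between the lines, 0 were called higher in SUM159PT and 6 lower of 13 tested, with a median of -0.76. Over all genes tested for that difference, 12.7% were called higher and 11.9% lower. IL1A, interleukin-1 alpha, averaged 6.22 ± 1.90 CPM in SUM159PT sgYES1 and 3.16 ± 1.51 CPM in SUM159PT sgNTS cells (log2 1.01 ± 0.24 SE, edgeR adjusted p = 0.00220). In MDA-MB-231 it averaged 26.2 ± 3.22 CPM with sgYES1 and 3.06 ± 0.284 CPM with sgNTS (log2 3.08 ± 0.11 SE, edgeR adjusted p = 1.36e-10). IL6 rose in MDA-MB-231 (log2 2.51 ± 0.07 SE, edgeR adjusted p = 1.18e-11) and in SUM159PT (log2 0.51 ± 0.19 SE, edgeR adjusted p = 0.0360). The SUM159PT call for IL6 was lost under DESeq2 (adjusted p = 0.234) and without any of replicates 1, 2 and 3 of sgYES1 or replicates 1 and 2 of sgNTS (edgeR adjusted p from 0.0613 to 0.160), which left 1 of the cytokine list called higher there. In SUM159PT 3 of that list fell with every gene that had a count and without replicate 2 of sgNTS. Of 20 AP-1, ETS and NF-kB genes, all 20 were tested in each line, of which 8 rose and 7 fell in SUM159PT and 12 rose and 5 fell in MDA-MB-231, with medians of -0.05 and 0.17. Those that rose in each line include NFKBIA, an inhibitor of NF-kB, and ERF, an ETS repressor, so the counts do not measure activators alone. In the difference between the lines, 0 were called higher in SUM159PT and 7 lower of 20, with a median of -0.17. FOSB rose in both lines (log2 1.19 ± 0.11 SE in SUM159PT and 2.38 ± 0.12 SE in MDA-MB-231, edgeR adjusted p = 6.01e-08 and 4.84e-09). FOSL1, an AP-1 subunit abundant in mesenchymal-like breast lines, averaged 494 ± 16.9 CPM in MDA-MB-231 sgYES1 and 729.7 ± 14.3 CPM in MDA-MB-231 sgNTS cells and fell (log2 -0.57 ± 0.03 SE, edgeR adjusted p = 2.19e-08). It fell in SUM159PT as well (log2 -0.49 ± 0.07 SE, edgeR adjusted p = 5.87e-06).

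**Figure D5:**
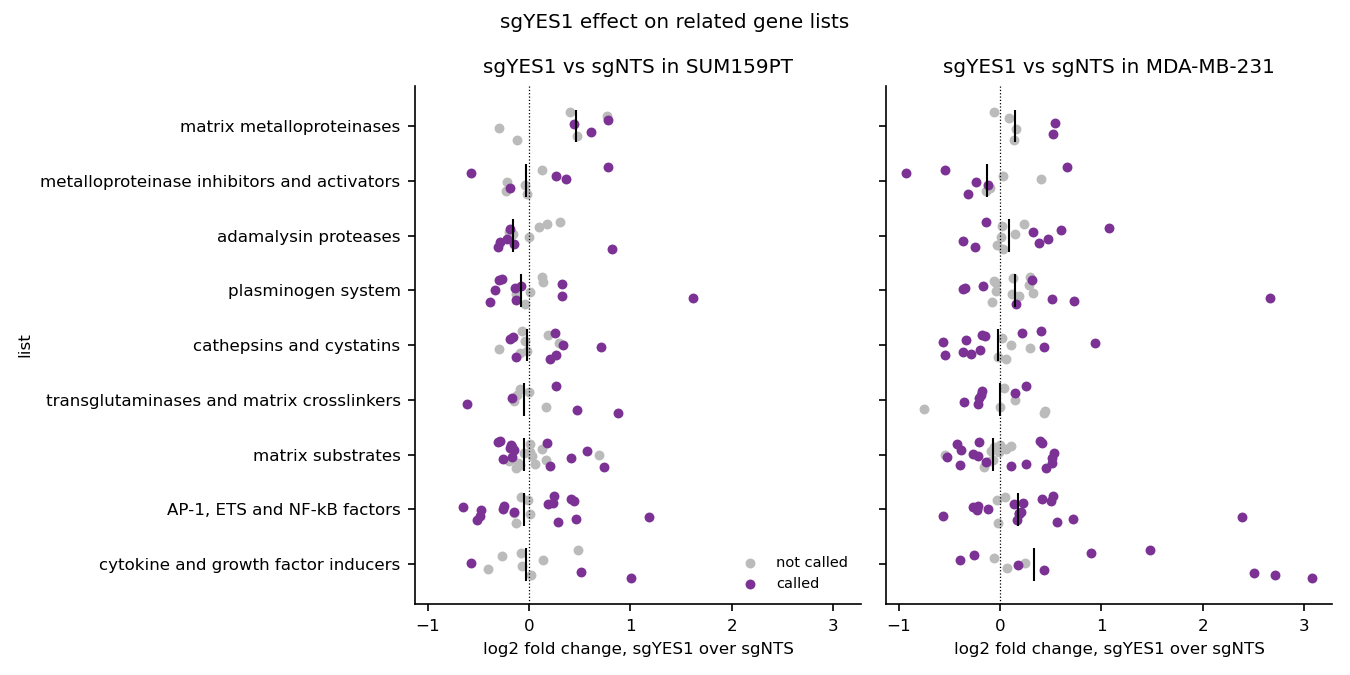
Log2 fold change of sgYES1 over sgNTS for each tested gene of 9 related lists in SUM159PT (left) and MDA-MB-231 (right), with called genes in purple, others in grey and a black line at the median of each list. The cytokine list has its median at -0.03 in SUM159PT and at 0.34 in MDA-MB-231, and the list of other MMPs has its median at 0.46 in SUM159PT and 0.15 in MDA-MB-231.

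Genes whose log2 CPM followed a member most closely are named as a description, from 11186 or 11187 protein-coding genes. The points of such a correlation share library, depth and guide, and over all 16 libraries they also share the line. Within SUM159PT, TGM2 was followed most closely by PTGES, the inducible prostaglandin E synthase (Pearson r = 0.997, n = 8 libraries), PLAUR by ABHD5 (r = 0.990) and MMP3 by MAD2L1BP (r = 0.995). Within MDA-MB-231, MMP9 was followed by NFKB2, an NF-kB subunit (r = 0.993, n = 8 libraries), MMP1 by SLC9A8 (r = 0.998), MMP14 by MXD1 (r = 0.997), TIMP3 by DARS (r = 0.998) with LOXL2 close behind (r = 0.997), and PLAUR by PLA2G4C (r = 0.996). PLAU, which did not pass the guide test in either line, was followed by TINF2 at r = 0.926 in SUM159PT and by FAM13A at r = 0.920 in MDA-MB-231. Over all 16 libraries, TGM2 was followed most closely by STK10 (r = 0.9965) and MMP3 by ZNF783 (r = 0.982).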

How the data were processed

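Poly-A RNA of 16 samples, 4 for each line and guide, was, per the labels' protocols, reverse transcribed from random hexamers. The authors deposited raw counts per gene, 1 table per line of 58735 genes. The submitters' processing notes name hg38, the aligner HISAT2 (2.0.5) and the counter featureCounts (1.5.0-p3). Strand use and the treatment of reads with several matches are not given in these sources.

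The test was edgeR's quasi-likelihood F-test (edgeR 4.0.16, R 4.3.3, TMM scaling, filterByExpr with smallest count 10 and smallest total 15). P-values were two-sided, adjusted by the Benjamini-Hochberg method over all genes tested (15427 in MDA-MB-231, 14479 in SUM159PT, 16640 in the difference between lines and 15567 between sgNTS cells) and called under 0.05. The guide was the sole term in a fit of the 8 libraries of a line. The difference between lines was the interaction over all 16, and the line comparison used the 8 sgNTS libraries. CPM were TMM-scaled over all 16 libraries, with a prior count of 2 on the log2 scale. Errors are SD over 4 libraries or the SE of a fitted value. Exact Poisson intervals at 95% and the floor of 3 counts cover counting error only. The code was tested on simulated data.

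The members and the gene lists (214 symbols, all matched) were chosen with earlier results of these data known. Genes named are YES1, the members, up to 4 tested genes with the smallest p per list and comparison, the genes in the ratios, genes overlapping a member, and up to 3 nearest genes by Pearson r of log2 CPM. PLG, MMP10, MMP2, ERF and single marker genes were named outside this rule, after their values were seen. Some genes that the rule names are not reported here. Alternatives were DESeq2 1.42.0, library totals in place of TMM, 2 other filters, a replicate block, all 16 libraries in 1 fit, and leaving out each library.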

Additional observations from a re-analysis of the deposited data

Results flagged for a closer look

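In groups of 4, a library was singled out when its gap to the nearest other as a share of the group's range exceeded Dixon's 95% limit. Chance gives this in about 1 in 20 groups of well-measured, independent values, and 8 of 55 groups checked did so. The rate does not hold where 1 library has reads and the others have 0, since the limit is then always exceeded. A gene and its ratio also share values, so the 8 groups are not independent. MMP1 had 21.9 CPM in replicate 4 of MDA-MB-231 sgNTS, and MMP1 over TIMP1 was 0.0647 in the same library, above the other 3. MMP1 had 0.0991 CPM in replicate 4 of SUM159PT sgNTS, which is 2 reads against 0 in the other 3, and MMP1 over TIMP1 was 0.000273 there. MMP9 had 0.0485 CPM in replicate 1 of SUM159PT sgYES1, which is 1 read. MMP14 stood highest at 861 CPM in replicate 3 of MDA-MB-231 sgNTS. TGM2 stood lowest at 1126 CPM in replicate 4 of MDA-MB-231 sgYES1, and PLAU over PLAUR lowest at 3.79 in replicate 3 of that group.

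The sgYES1 effect differed between the lines by the interaction test for these genes, given on the log2 scale as SUM159PT minus MDA-MB-231. It was -0.45 for MMP14 (edgeR adjusted p = 0.000240) and 0.32 for PLAUR (edgeR adjusted p = 0.0109). Among partners of the members it was 0.28 for TIMP2 (edgeR adjusted p = 0.000951), 0.68 for MMP19 (edgeR adjusted p = 0.00477), 1.10 for SERPINE2 (edgeR adjusted p = 4.73e-06) and -0.60 for THBD (edgeR adjusted p = 0.000899).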

How the results depend on the processing

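The count of genes called kept within 1.5 times its value in all 63 alternatives run. Of 461 alternative values of the members, 433 kept their direction and, except for TGM2, their side of the threshold. Values of TGM2, which has no test, count by direction only. Another 24 changed sign, all of them log2 values of PLAU or TIMP1 that were not called. For PLAU in MDA-MB-231 the log2 fold change was 0.0377 with library totals and 0.00122 with the 1 CPM filter, and -0.0325 to 0.0145 when 1 library was left out. For PLAU in SUM159PT it was -0.00659 with every gene that had a count, -0.00196 with all 16 libraries, and -0.190 to 0.165 when 1 library was left out. The difference between lines for PLAU was -0.00547 with library totals and -0.196 to 0.188 when 1 library was left out. TIMP1 in MDA-MB-231 had -0.00550 with every gene that had a count and -0.00360 to 0.0417 when 1 library was left out. Between sgNTS cells TIMP1 had -0.00848 with library totals, -0.00500 with DESeq2, -0.0415 with every gene that had a count and -0.00511 to 0.0191 when 1 library was left out. The difference between lines for TIMP1 passed the test in 4 alternatives, at 0.132 with DESeq2, and ranged from 0.0969 to 0.169 when 1 library was left out. The cause was not tested.

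Deviations of same-numbered libraries from their group means had correlations of -0.083 to 0.032. Differently numbered libraries within a line had correlations of -0.058 to 0.090. The check cannot exclude a small shared effect, and no source used here gives a shared day for them. With a replicate block, 5901 genes were called in MDA-MB-231, 5886 in SUM159PT, 3817 in the difference between lines and 12753 between sgNTS cells, PLAU in SUM159PT had -0.00176, and no call on a member changed. Of 756 alternative counts of list members called, 712 stayed within 1.5 times the count reported, 31 were above and 13 below. Of other named genes, 24 of 2244 values lost a call and 6 gained 1. Depth limits MMP1, MMP9 and TIMP3 in SUM159PT and MMP3 in MDA-MB-231 sgNTS cells, with at most 6 reads a library.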

Other observations

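Values outside the comparisons above concern related genes picked after their values were seen. SERPINB2, an intracellular inhibitor of urokinase, averaged 1.47 CPM in MDA-MB-231 sgYES1 and 0.216 CPM in MDA-MB-231 sgNTS cells (log2 2.67 ± 0.31 SE) and was at 0 in every SUM159PT library. Its sgNTS mean lay under the filter limit of 0.507 CPM in MDA-MB-231. Its entry into the fit therefore depended on sgYES1, where it was higher, and its values are a description with no test. LOXL4, a lysyl oxidase, averaged 0.195 CPM in SUM159PT sgYES1 and 0.0179 CPM in SUM159PT sgNTS cells, and 74.8 CPM in MDA-MB-231 sgYES1 and 86.2 CPM in MDA-MB-231 sgNTS cells. CTSS, a cathepsin, rose in MDA-MB-231, at 39.0 ± 2.27 CPM with sgYES1 and 20.3 ± 1.43 CPM with sgNTS (log2 0.94 ± 0.06 SE, edgeR adjusted p = 6.58e-08). CTSC, another cathepsin, averaged 201 ± 11 CPM in SUM159PT sgYES1 and 168 ± 8.50 CPM in SUM159PT sgNTS cells, and 109 ± 3.65 CPM in MDA-MB-231 sgYES1 and 157 ± 3.66 CPM in MDA-MB-231 sgNTS cells. It rose in SUM159PT (log2 0.27 ± 0.05 SE, edgeR adjusted p = 0.000107) and fell in MDA-MB-231 (log2 -0.54 ± 0.04 SE, edgeR adjusted p = 7.12e-08).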
